A study of Mus musculus with 6 samples.

Results

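The genes described here are 50 mouse genes of glutathione and antioxidant metabolism, named by symbol: the glutathione transferases, the glutathione peroxidases and catalase, the peroxiredoxins, the thioredoxins, the enzymes that make and recycle glutathione, the superoxide dismutases, and heme oxygenase with the NRF2 regulator and its inhibitor. A gene was measured through a probe set, a group of array probes for a transcript, that the platform annotation gives to that symbol alone, and where it had several, through that of the highest average intensity on the 6 arrays. This gave a probe set for 46 of the 50 genes, of 19938 genes with such a probe set in all. Gsta1 and Gsta2 appear only in 4 probe sets that name several genes, and Prdx5 and Prdx6 were not analysed here because no probe set carries their symbol in the annotation used. Gstk1 stayed under the intensity filter, at a mean log2 intensity of 2.63 ± 0.16 in 8KR cells and 2.59 ± 0.06 in wild type cells. The remaining 45 genes were tested, of 17145 tested genes in all.

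The tested cells were NIH/3T3 fibroblasts, an immortalized mouse line, that stably expressed 8KR, an HA-tagged RPB1 with arginines in place of the lysines at a fixed position of its C-terminal repeats, so that these could not be acetylated. They were compared with NIH/3T3 fibroblasts that stably expressed HA-tagged wild type RPB1. RPB1 is the large catalytic subunit of RNA polymerase II and carries the repeats on its tail. Both were kept in 2 ug/ml of α-amanitin, an inhibitor of the polymerase, and each group was hybridized as 3 biological replicates to Affymetrix Mouse Gene 1.0 ST arrays. The sources do not state whether a group was a single clone or a mixed population of transfected cells. The question put to these genes was which of them differed in RNA level when RPB1 could not be acetylated.

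Cells turn superoxide into hydrogen peroxide with superoxide dismutases and remove the peroxide with catalase, glutathione peroxidases and peroxiredoxins. Glutathione is a small thiol made from glutamate, cysteine and glycine. The peroxidases oxidize it, glutathione reductase restores it with NADPH, and the transferases attach it to reactive compounds so that these can be exported. Many of these genes are induced by NRF2, a transcription factor encoded by Nfe2l2 that KEAP1 marks for degradation, through a promoter sequence called the antioxidant response element.

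The core letters of that element, TGACNNNGC, were searched on both strands of the RefSeq promoter windows (GRCm38.p6, 250 bases before to 50 bases after a gene's start). A window was at hand for 43 of the 50 genes, and none was given for Prdx6, Gclc, Sod3, Hmox1, Gsr, Gstt2 and Gsta4. The core was present in 11 of the 43 (25.6%), against 14% of 27025 genes of the table. It was present in 2 of the 9 called genes with a window and in 9 of the 30 that were tested and not called. The matches below are those of the 2 called genes, Mgst1 and Nfe2l2, of 2 Gstm genes of the same chromosome cluster, and of 3 genes that NRF2 is known to induce and that were not called. Each is shown with 10 bases on either side, the match in capitals, 5′ to 3′ along the gene. A match that opens with GC has the element on the opposite strand.
Mgst1, chr6:138140461-138140489, plus strand: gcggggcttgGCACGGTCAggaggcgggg
Nfe2l2, chr2:75704885-75704913, minus strand: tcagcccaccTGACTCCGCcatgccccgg
Gstm5, chr3:107895802-107895830, plus strand: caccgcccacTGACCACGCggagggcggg
Gstm7, chr3:107931725-107931753, minus strand: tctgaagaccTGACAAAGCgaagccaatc
Gclm, chr3:122245413-122245441, plus strand: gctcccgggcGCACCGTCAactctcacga
Prdx1, chr4:116685456-116685484, plus strand: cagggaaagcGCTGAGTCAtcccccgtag
Txnrd1, chr10:82859104-82859132, plus strand: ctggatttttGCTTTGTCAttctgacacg
With the start of the gene counted as 0, the match began at -56 in Mgst1, -240 in Nfe2l2, -42 in Gstm5, -129 in Gstm7, -134 in Gclm, -133 in Prdx1 and -92 in Txnrd1. The Prdx1 match was the only one of the 11 genes that overlapped an AP-1 site (TGANTCA). Gsta3, Srxn1, Ggct and Sod1 made up the rest. A match describes the letters of the window and is not evidence of binding.

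The Gstm genes lie side by side, and 3 of the 7 were called, against 5.39% of all genes. The promoter windows of 3 of the genes are shown in full, with any core match in capitals. Gstm1 and Gstm2 were called lower in 8KR cells, and Gstm5 was not called.
Gstm1, chr3:108017924-108018223, minus strand: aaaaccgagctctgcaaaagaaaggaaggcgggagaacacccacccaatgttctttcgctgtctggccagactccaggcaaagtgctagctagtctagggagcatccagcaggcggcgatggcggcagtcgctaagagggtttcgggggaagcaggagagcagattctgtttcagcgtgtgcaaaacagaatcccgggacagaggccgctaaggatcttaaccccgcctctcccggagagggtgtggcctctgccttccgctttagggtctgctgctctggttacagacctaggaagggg
Gstm2, chr3:107986371-107986670, minus strand: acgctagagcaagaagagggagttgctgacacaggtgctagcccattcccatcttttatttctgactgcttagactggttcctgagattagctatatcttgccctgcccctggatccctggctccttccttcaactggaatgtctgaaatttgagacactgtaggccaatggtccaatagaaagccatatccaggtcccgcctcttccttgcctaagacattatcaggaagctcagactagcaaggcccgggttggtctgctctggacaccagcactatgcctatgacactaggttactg
Gstm5, chr3:107895604-107895903, plus strand: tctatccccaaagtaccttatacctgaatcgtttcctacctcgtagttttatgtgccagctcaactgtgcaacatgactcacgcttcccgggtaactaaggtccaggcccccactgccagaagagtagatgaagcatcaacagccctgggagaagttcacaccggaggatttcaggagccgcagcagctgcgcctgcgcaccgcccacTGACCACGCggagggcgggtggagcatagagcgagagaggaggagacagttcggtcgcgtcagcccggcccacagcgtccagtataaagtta
The Gstm5 window held 1 match of the core, and the windows of Gstm1 and Gstm2 held 0. For Gstm1, the RefSeq table gives 2 windows, and neither held the core.

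Of the 45 tested genes, 11 (24.4%) were called, that is, had an adjusted p under 0.05 in limma with Benjamini-Hochberg adjustment over all 28543 probe sets tested. Over all 17145 genes the share called was 5.39%. The called genes were 2 that were higher in 8KR cells, Mgst1 and Gstcd, and 9 that were lower, Sod3, Gstm1, Gstm2, Gstm3, Gsta4, Mgst2, Gpx1, Prdx3 and Nfe2l2. Over all genes, 2.33% were called higher and 3.06% lower. The median log2 difference of the 45 genes, 8KR minus wild type, was -0.15, against 0.01 over all genes, and 34 of the 45 differences were negative. Without Gstm6, which passed the filter only through wild type, 33 of 44 were negative and the median stayed at -0.15. Before adjustment, 20 of the 45 had a p under 0.05 in limma, against 21.8% of all genes. The 3 arrays of 8KR did not overlap the 3 of wild type for 25 of the 45 genes, higher for 4 and lower for 21, while 29.7% of all genes had arrays that did not overlap. Most of these genes lay well above the filter, and among the 9882 genes in which a group had a mean above 5.0, refitted alone, 16 of 39 of the antioxidant genes were called (3 higher, 13 lower), against a background of 17.6%. In bulk RNA, a lower level in every cell and fewer cells with the RNA cannot be told apart.

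Of the 11 calls, 3 held with any single array left out. Adjusted p under such omissions was 0.00888 to 0.0147 for Sod3, 0.0198 to 0.0336 for Mgst1 and 0.032 to 0.0423 for Gpx1. Gstcd stayed under 0.05 without 8KR replicate 1 (0.0414) or 8KR replicate 2 (0.039), and reached 0.0604 to 0.0639 without any other array. Gstm2 stayed under it without 8KR replicate 2 (0.0388) or wild type replicate 3 (0.0499), and was at 0.0759 to 0.0815 otherwise. Gstm1 (0.041) and Prdx3 (0.0396) stayed under it only without wild type replicate 3, with 0.0531 to 0.0559 for Gstm1 and 0.0518 to 0.0624 for Prdx3 without each of the others. The remaining 4 calls were lost with any array left out, with adjusted p of 0.0756 to 0.108 for Gsta4, 0.0614 to 0.0964 for Gstm3, 0.0814 to 0.126 for Mgst2 and 0.0966 to 0.13 for Nfe2l2. The share of all genes called fell in the same omissions, to 1.59% to 1.71%, while 6.67% to 13.6% of the antioxidant genes were called. The direction of the 11 differences did not turn in any of the omissions.

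The array values of the 11 called genes are given by role below, as log2 intensity on 8KR replicates 1, 2 and 3 and then on wild type replicates 1, 2 and 3. Each ± is the SD over the 3 arrays of a group, and intensities of different probe sets are not on a common scale of RNA amount.

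**Figure D1:**
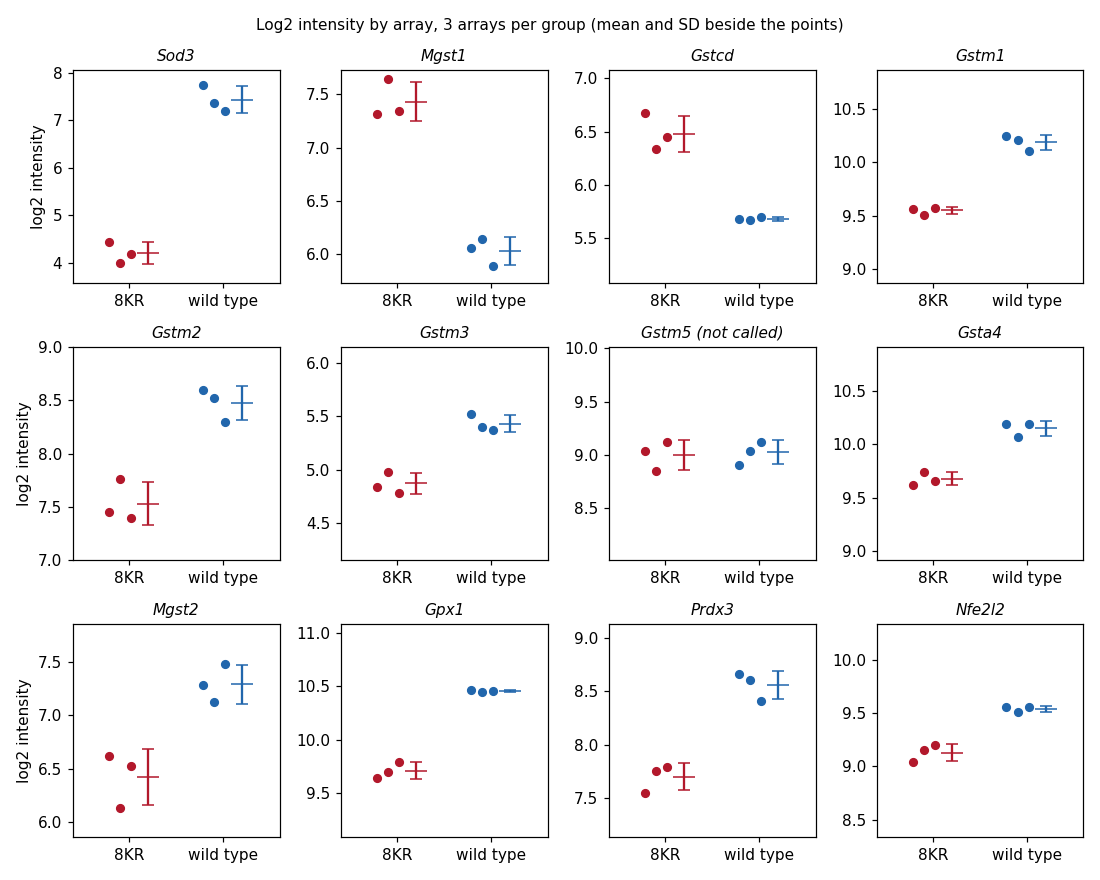
Log2 intensity (vertical axis) of the 11 called genes and of Gstm5, which was not called. Each point is an array, with 8KR on the left and wild type on the right, and the bar beside the points gives the mean and SD of 3 arrays. The vertical axis spans an equal range in every panel but that of Sod3. The 8KR arrays lie apart from the wild type arrays in every panel but that of Gstm5.

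Superoxide dismutases were the group with the largest single difference. Sod3, the secreted dismutase that binds to the matrix around cells, had log2 intensities of 4.44, 3.99 and 4.18 in 8KR cells and 7.75, 7.36 and 7.20 in wild type cells. The means were 4.20 ± 0.23 in 8KR cells and 7.44 ± 0.28 in wild type cells, a log2 difference of -3.23 (SE 0.18, limma adjusted p = 0.00156). In intensity, the 8KR level was 10.6% of the wild type level. The 8KR mean lay below the array medians of 4.49 to 4.54, and how closely intensity follows RNA amount there was not tested. The lowest wild type array lay far above the highest 8KR array. Sod2, the mitochondrial manganese enzyme, was at 7.60, 7.71 and 7.61 in 8KR cells and 7.95, 7.87 and 8.01 in wild type cells. Its arrays did not overlap, but the log2 difference of -0.30 was not called (95% interval -0.49 to -0.11, limma adjusted p = 0.0962). Sod1, the cytosolic copper and zinc enzyme, had 11.03, 11.02 and 11.00 in 8KR cells and 10.88, 10.95 and 10.90 in wild type cells. These arrays did not overlap either and ran the opposite way, by a log2 difference of 0.11 (95% interval -0.06 to 0.27, limma adjusted p = 0.452).

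Glutathione transferases, with Gstcd counted among them, made up 19 of the 45 tested genes and 7 of the 11 calls. Of the 19 tested transferases, 2 rose, 5 fell and 12 were not called, and 16 of the 19 differences were negative. Over all 17145 genes, 2.33% were called higher and 3.06% lower, and 8269 differences were negative. Without Gstm6, the negative differences were 15 of 18, with a median of -0.23.

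The mu class, the Gstm genes, held 3 of these calls among 7 tested genes, all of them lower, against 3.06% of all genes called lower. Gstm1, which conjugates glutathione to a broad range of electrophiles, had 9.56, 9.51 and 9.57 in 8KR cells and 10.25, 10.21 and 10.11 in wild type cells. Its means were 9.55 ± 0.03 in 8KR cells and 10.19 ± 0.07 in wild type cells, a log2 difference of -0.64 (SE 0.07, limma adjusted p = 0.0119) or 64.1% of wild type. Replicates of each group lay within a narrow band, and the bands did not meet. Gstm2 had 7.45, 7.76 and 7.40 in 8KR cells and 8.60, 8.52 and 8.30 in wild type cells, with means of 7.53 ± 0.20 in 8KR cells and 8.47 ± 0.16 in wild type cells. This was the largest fall in the class, with a log2 difference of -0.94 (SE 0.13, limma adjusted p = 0.0215), and 8KR cells kept 52.2% of the wild type level. Gstm3 had 4.84, 4.98 and 4.78 in 8KR cells and 5.52, 5.40 and 5.37 in wild type cells, a log2 difference of -0.56 (SE 0.09, limma adjusted p = 0.0272). A second Gstm3 probe set, with means of 4.18 ± 0.37 in 8KR cells and 4.65 ± 0.20 in wild type cells, ran the same way by -0.47, but its arrays overlapped and it was not called (limma adjusted p = 0.291).

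The other 4 Gstm genes did not pass. Gstm4 had 4.95, 4.79 and 4.88 in 8KR cells and 5.35, 5.37 and 5.99 in wild type cells. Its arrays did not overlap, wild type replicate 3 stood above the other 2, and the log2 difference of -0.70 had an SE of 0.19 (limma adjusted p = 0.104). Gstm7 lay at -0.30, without overlap between its arrays (limma adjusted p = 0.0785). Gstm6 passed the filter only through wild type, with a mean of 2.74 in 8KR cells and 3.14 in wild type cells, and its arrays overlapped. Gstm5 had 9.04, 8.85 and 9.12 in 8KR cells and 8.91, 9.04 and 9.12 in wild type cells. Its log2 difference of -0.02 has a 95% interval of -0.28 to 0.23 (limma adjusted p = 0.928), an interval that does not reach the value of Gstm1, Gstm2 or Gstm3.

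In the order in which RefSeq places them on chromosome 3, the differences were -0.02 for Gstm5, -0.30 for Gstm7, -0.40 for Gstm6, -0.56 for Gstm3, -0.94 for Gstm2, -0.64 for Gstm1 and -0.70 for Gstm4. With Gstm6 left out, since it passed the filter only through wild type, the median of the other 6 was -0.60, and Gstm5, at an end of the row, was the one nearest 0. The 5 nearest tested genes on each side of the row ran from -0.19 to 0.22 with a median of 0.06. Of these 10, 0 were called by limma or had an unadjusted p under 0.05. Arrays of 3 of the 10 did not overlap, a number near the 29.7% of all genes. Gstm genes are close relatives in sequence, and how far a probe set of the row reads RNA of its neighbours was not tested.

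Among the other soluble transferases, Gsta4, which acts on reactive aldehydes from lipid peroxidation, had 9.62, 9.74 and 9.66 in 8KR cells and 10.19, 10.07 and 10.19 in wild type cells. The means of 9.68 ± 0.06 in 8KR cells and 10.15 ± 0.07 in wild type cells gave a log2 difference of -0.47 (SE 0.08, limma adjusted p = 0.0319), or 72.1% of wild type. Gstcd, named for a transferase-like domain, went the other way. Its arrays read 6.67, 6.34 and 6.45 in 8KR cells and 5.68, 5.67 and 5.70 in wild type cells, with means of 6.48 ± 0.17 in 8KR cells and 5.68 ± 0.02 in wild type cells. This is a rise of 0.80 on the log2 scale (SE 0.10, limma adjusted p = 0.0151), 1.75 times the wild type level.

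Gstp1, the pi class enzyme, had 11.26, 11.31 and 11.44 in 8KR cells and 11.53, 11.47 and 11.61 in wild type cells. All 8KR arrays were below all wild type arrays, by -0.20 on average, and the difference was not called (limma adjusted p = 0.256). Gstp1 is also named in 2 probe sets with several symbols, which were not used. Gstt1, of the theta class, was at -0.49 without overlap of its arrays (limma adjusted p = 0.0743), and Gsto1, of the omega class, at -0.13 without overlap (limma adjusted p = 0.397). The arrays of Gsta3, Gstt2, Gstt3 and Gstz1 overlapped, with log2 differences of -0.26, -0.15, 0.21 and -0.13 and limma adjusted p from 0.307 to 0.692.

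The microsomal transferases sit in membranes, and all 3 had arrays that did not overlap, against 29.7% of all genes. Mgst1, which has transferase and peroxidase activity at the endoplasmic reticulum and the outer mitochondrial membrane, had 7.31, 7.64 and 7.34 in 8KR cells and 6.06, 6.14 and 5.89 in wild type cells. Its means of 7.43 ± 0.18 in 8KR cells and 6.03 ± 0.13 in wild type cells differed by 1.40 on the log2 scale (SE 0.12, limma adjusted p = 0.00539), 2.64 times the wild type level and the largest rise of the 45 genes. Mgst2, which can also make leukotrienes, had 6.62, 6.13 and 6.52 in 8KR cells and 7.28, 7.12 and 7.48 in wild type cells. It fell to 6.42 ± 0.26 in 8KR cells, against 7.29 ± 0.18 in wild type cells, a log2 difference of -0.87 (SE 0.16, limma adjusted p = 0.0439). Mgst1 and Mgst2 thus differed in opposite directions. Mgst3 had 8.41, 8.43 and 8.28 in 8KR cells and 8.44, 8.52 and 8.50 in wild type cells, and its log2 difference of -0.11 was not called (limma adjusted p = 0.501).

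**Figure D2:**
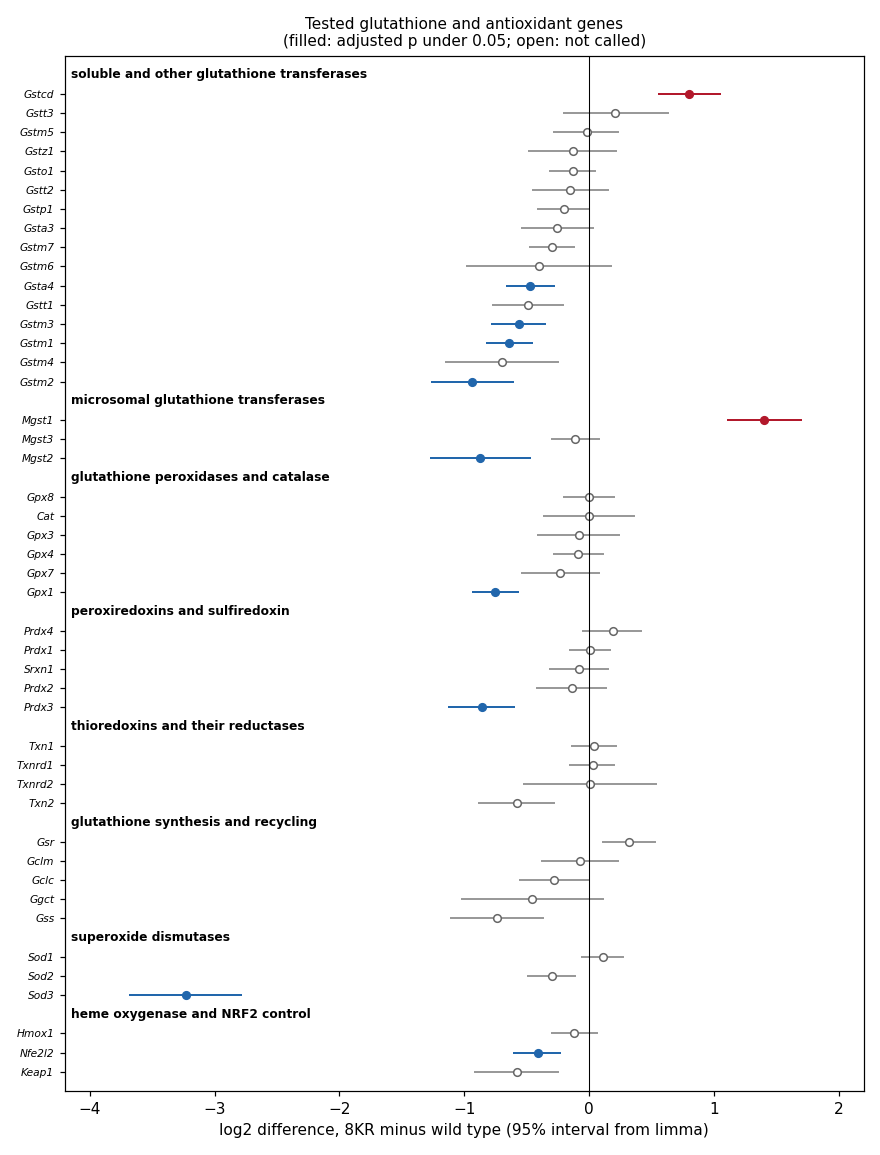
Log2 difference, 8KR minus wild type (horizontal axis), of the 45 tested genes by role, with the 95% interval from limma. Filled points are the 11 called genes, red for higher and blue for lower in 8KR cells, and open points were not called. Sod3, at -3.23, and Mgst1, at 1.40, lie farthest from 0.

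Of the glutathione peroxidases and catalase, 1 of 6 was called, against 5.39% of all genes. Gpx1, the selenoenzyme that reduces hydrogen peroxide in the cytosol and mitochondria, had 9.64, 9.70 and 9.79 in 8KR cells and 10.47, 10.45 and 10.46 in wild type cells. The means were 9.71 ± 0.08 in 8KR cells and 10.46 ± 0.01 in wild type cells, a log2 difference of -0.75 (SE 0.07, limma adjusted p = 0.00756), so that 8KR cells had 59.4% of the wild type level. The wild type arrays nearly coincided, and all 8KR arrays lay below them. Gpx4, the selenoenzyme that reduces lipid peroxides, had 10.06, 9.96 and 10.14 in 8KR cells and 10.14, 10.12 and 10.16 in wild type cells. These overlapped, and the log2 difference of -0.09 has a 95% interval of -0.28 to 0.11 (limma adjusted p = 0.612). A second Gpx4 probe set lay at -0.14 without overlap (limma adjusted p = 0.418). Gpx3, which is secreted, Gpx7 and Gpx8, which sit in the endoplasmic reticulum, and catalase, Cat, of the peroxisome had overlapping arrays and log2 differences of -0.08, -0.23, 0.00 and -0.00, none of them called (limma adjusted p 0.389 to 0.998). The intervals do not show that these genes were alike in both groups: that of Cat runs from -0.36 to 0.36.

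Peroxiredoxins reduce peroxides through a reactive cysteine, and 1 of the 5 tested genes of this group was called, against 5.39% of all genes. Prdx3, the mitochondrial form, had 7.55, 7.75 and 7.79 in 8KR cells and 8.66, 8.61 and 8.41 in wild type cells. It averaged 7.70 ± 0.13 in 8KR cells and 8.56 ± 0.13 in wild type cells, a log2 difference of -0.86 (SE 0.11, limma adjusted p = 0.0148), or 55.0% of wild type, with no overlap. Prdx1, a cytosolic form, had 11.34, 11.37 and 11.34 in 8KR cells and 11.34, 11.35 and 11.33 in wild type cells. These arrays were nearly level, and the 95% interval of the log2 difference of 0.01 is -0.15 to 0.17. The cytosolic Prdx2 (-0.14), Prdx4 of the endoplasmic reticulum (0.19) and Srxn1, which restores overoxidized peroxiredoxins (-0.08), had overlapping arrays and were not called (limma adjusted p 0.355 to 0.723). Second probe sets of Prdx1 and Prdx2 lay at -0.09 and 0.00 and were not called.

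Thioredoxins and their reductases, which pass electrons from NADPH to the peroxiredoxins, held 0 called genes of 4 (limma), and 1 of the 4 had an unadjusted p under 0.05, near the 21.8% of all genes. This was Txn2, the mitochondrial thioredoxin, with 8.97, 9.11 and 9.13 in 8KR cells and 9.52, 9.54 and 9.89 in wild type cells. Its arrays did not overlap, and the log2 difference was -0.58 (SE 0.12, limma adjusted p = 0.0617). The cytosolic Txn1 had 11.69, 11.67 and 11.75 in 8KR cells and 11.61, 11.65 and 11.73 in wild type cells, with overlap and a log2 difference of 0.04 (95% interval -0.14 to 0.22). Txnrd1 was at 0.03 and Txnrd2, the mitochondrial reductase, at 0.01, with a wide interval of -0.52 to 0.54 for Txnrd2.

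Synthesis and recycling of glutathione held 0 called genes of 5 (limma), and 3 of the 5 had an unadjusted p under 0.05, against 21.8% of all genes. Gss, the synthetase of the last step, had 6.03, 6.02 and 6.22 in 8KR cells and 7.0, 6.52 and 6.99 in wild type cells. Its arrays did not overlap, and its log2 difference of -0.74 (SE 0.15, limma adjusted p = 0.0552) was the largest of those in the list that missed the threshold. Gss was called with wild type replicate 2 left out, at a log2 difference of -0.90 (limma adjusted p = 0.0364). Gclc, the catalytic subunit of the first and rate-limiting step, had 6.94, 7.14 and 7.27 in 8KR cells and 7.50, 7.39 and 7.31 in wild type cells, without overlap, and was not called at -0.28 (limma adjusted p = 0.238). Its regulatory subunit Gclm had 7.82, 8.04 and 7.83 in 8KR cells and 8.08, 7.74 and 8.09 in wild type cells, with overlap and a log2 difference of -0.07 (95% interval -0.38 to 0.23). Gsr, glutathione reductase, lay above wild type on all arrays, with 7.98, 7.85 and 7.98 in 8KR cells and 7.59, 7.72 and 7.54 in wild type cells, and was not called at 0.32 (limma adjusted p = 0.107). Ggct, which breaks down gamma-glutamyl peptides, was at -0.46 with overlapping arrays.

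Nfe2l2, the gene for NRF2, was the called gene among the regulators. It had 9.04, 9.15 and 9.20 in 8KR cells and 9.56, 9.51 and 9.56 in wild type cells, with means of 9.13 ± 0.08 in 8KR cells and 9.54 ± 0.03 in wild type cells. The log2 difference of -0.41 (SE 0.08, limma adjusted p = 0.0432) puts 8KR cells at 75.1% of wild type. Keap1, whose protein holds NRF2 down, ran in the same direction, with 6.08, 5.66 and 5.81 in 8KR cells and 6.32, 6.39 and 6.58 in wild type cells, but was not called (log2 difference -0.58, SE 0.14, limma adjusted p = 0.0733). Hmox1, the heme-degrading enzyme that NRF2 induces, had 10.15, 10.21 and 10.07 in 8KR cells and 10.24, 10.27 and 10.27 in wild type cells. All of its 8KR arrays were below all wild type arrays, by little: the log2 difference was -0.12 (95% interval -0.30 to 0.06, limma adjusted p = 0.444).

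Other redox genes outside the list were read through 7 further lists of 70 genes, of which 67 were tested. Ggt1 and G6pdx had no probe set of their own symbol, and Maob was under the filter. Of the 67, 8 (11.9%) were called, 2 higher and 6 lower, against the 5.39% of all genes, and the median log2 difference was -0.08.

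The further list of NRF2 targets held 5 of the 6 falls. It does not hold every gene that NRF2 induces, and it was written with earlier results of these data known. The main list also holds genes that NRF2 induces, which were not counted apart. Over all 45 tested genes of the main list, 9 were called lower and 2 higher, against 3.06% and 2.33% of all genes. Gclm (-0.07), Prdx1 (0.01), Txnrd1 (0.03) and Hmox1 (-0.12), named above as induced by NRF2, were not called. Of the 14 tested genes of the further list, 5 were called, all of them lower, and 8 had 8KR arrays below all wild type arrays. Over all 17145 genes, 3.06% were called lower, and 2517 genes had 8KR arrays below all wild type arrays. Ephx1, the microsomal epoxide hydrolase, had 7.37, 7.22 and 7.34 in 8KR cells and 8.60, 8.68 and 8.61 in wild type cells, a log2 difference of -1.32 (SE 0.08, limma adjusted p = 0.0018). Nqo1, a quinone reductase, had 5.85, 6.20 and 5.98 in 8KR cells and 7.01, 7.25 and 7.02 in wild type cells, a log2 difference of -1.08 (SE 0.12, limma adjusted p = 0.0111). Neither gene overlapped between groups. Aldh3a1, an aldehyde dehydrogenase, differed by -1.42 (limma adjusted p = 0.0105), with low means of 3.64 in 8KR cells and 5.06 in wild type cells. Osgin1, an oxidative stress-induced growth inhibitor, differed by -0.62 (limma adjusted p = 0.0148) and the carbonyl reductase Cbr3 by -0.50 (limma adjusted p = 0.0421). The other 9 were not called, with differences from -0.36 for Cbr1 to 0.20 for Blvrb.

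Slc7a11, the cystine transporter that feeds glutathione synthesis, was lower at 4.83, 4.89 and 4.80 in 8KR cells and 5.34, 5.35 and 5.62 in wild type cells (log2 difference -0.59, SE 0.10, limma adjusted p = 0.0355). It was the only call among 11 genes of cystine uptake and glutathione export or cleavage, against 5.39% of all genes. The 2 rises with all arrays were among the 7 tested genes of the list of NADPH supply, against 2.33% of all genes called higher. Nnt, the mitochondrial transhydrogenase, had 7.37, 7.43 and 7.45 in 8KR cells and 6.75, 6.90 and 6.70 in wild type cells, a log2 difference of 0.63 (SE 0.08, limma adjusted p = 0.0176). Idh1, the cytosolic isocitrate dehydrogenase, had 9.44, 9.58 and 9.58 in 8KR cells and 9.04, 9.06 and 8.83 in wild type cells, a log2 difference of 0.56 (SE 0.10, limma adjusted p = 0.0353). In both, all 8KR arrays were above all wild type arrays. Of the 7 genes of that list, 5 were positive, against 8876 of all 17145 genes. Among glutaredoxins and thiol repair (15 tested), NRF2 partners and relatives (9), sources of superoxide and peroxide (8) and the metal chaperone and metallothioneins (3), 0 genes were called (limma). In these lists, in that order, 6, 1, 4 and 1 genes had an unadjusted p under 0.05, against 21.8% of all genes, and 7, 3, 4 and 1 had arrays that did not overlap, against 29.7%. With single arrays left out, 1 to 4 of the 67 genes were called, 1 without 8KR replicate 3 and 4 without wild type replicate 2. Both rises lost their call in most of these omissions. Nnt stayed under 0.05 only without wild type replicate 2 (adjusted p 0.0389, and 0.0629 to 0.0724 without each of the others), and Idh1 in none (0.0814 to 0.115). Of the falls, Ephx1 held in all 6 omissions (0.0112 to 0.0166), Nqo1 in all but that of 8KR replicate 3 (0.0534), and Aldh3a1 in all but those of 8KR replicate 2 (0.0522) and 8KR replicate 3 (0.0523). Osgin1 held only without 8KR replicate 2 (0.0453, and 0.0586 to 0.063 otherwise), and Slc7a11 (0.0735 to 0.115) and Cbr3 (0.0553 to 0.128) in none.

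**Figure D3:**
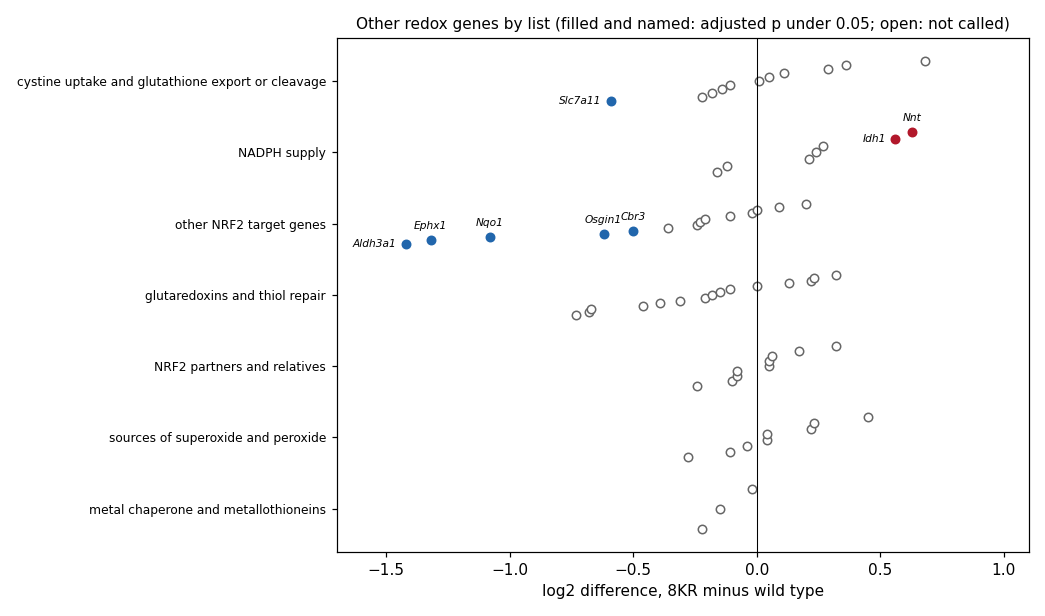
Log2 difference, 8KR minus wild type (horizontal axis), of the 67 tested redox genes outside the main list, a row for each list. Filled and named points had an adjusted p under 0.05, red for higher and blue for lower in 8KR cells, and open points were not called. The 5 called NRF2 targets lie between -1.42 and -0.50.

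Several called genes were set beside their 5 nearest tested genes on either side, with genes of the antioxidant list left out, since some lie in stretches where neighbours moved as well. Over 17002 genes with 8 or more such neighbours, 2.17% had a neighbour median of at least 0.3 in size on the log2 scale. Around Gstcd on chromosome 3 the median of the 10 neighbours was 0.44. Of them, 9 were positive, and Npnt (0.73), Aimp1 (0.55) and Papss1 (0.45) were called higher, while Ints12 (0.58) and Ppa2 (0.77) did not overlap and were not called. Around Prdx3 on chromosome 19 the median of the 8 neighbours was -0.40. Grk5 was called lower at -0.95, and Cacul1, Nanos1, Eif3a and Sfxn4 lay between -0.42 and -0.32 without overlap and were not called. Gstcd (0.80) and Prdx3 (-0.86) differed in the direction of their neighbours, and the part of the stretch in these results was not tested.

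Sod3 had a different surrounding on chromosome 5. Ppargc1a, a coactivator of mitochondrial genes, stands 2 places away and had 4.10, 3.99 and 4.32 in 8KR cells and 7.28, 7.49 and 7.36 in wild type cells, a log2 difference of -3.24 (SE 0.11, limma adjusted p = 0.000468). Dhx15, between them, was at -0.18, and the other 8 neighbours ran from -0.43 to 0.14. The size seen in Sod3 and Ppargc1a was thus not seen in the rest of the row. Of the 10 neighbours, Ppargc1a included, 7 were negative, with a median of -0.14, and 1, Ppargc1a, was called, against 5.39% of all genes. Arrays of 4 did not overlap, all of them lower, against 29.7% of all genes. An unadjusted p under 0.05 was found for 4, against 21.8%. Near Gsta4 on chromosome 9, 2 of the 10 neighbours, Fbxo9 (-0.83) and Elovl5 (-0.39), were called lower, against 3.06% of all genes. The median was -0.15. Arrays of 5 of the 10 were lower without overlap, those 2 with Mto1 (-0.48), Rn7sk (-0.29) and Eef1a1 (-0.10), while 29.7% of all genes did not overlap. An unadjusted p under 0.05 was found for 4 of the 10. The neighbours of Gpx1, also on chromosome 9, had a median of -0.18 and 0 calls (limma), with an unadjusted p under 0.05 for 3 of the 10, a number near the 21.8% of all genes, and Usp4, next to it, was at -0.50. Around Mgst1 the median was -0.00, with Plekha5 called higher at 0.62, and around Mgst2 and Nfe2l2 it was 0.03, with 0 calls (limma) and an unadjusted p under 0.05 for 1 neighbour of Mgst2 and 0 of Nfe2l2.

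**Figure D4:**
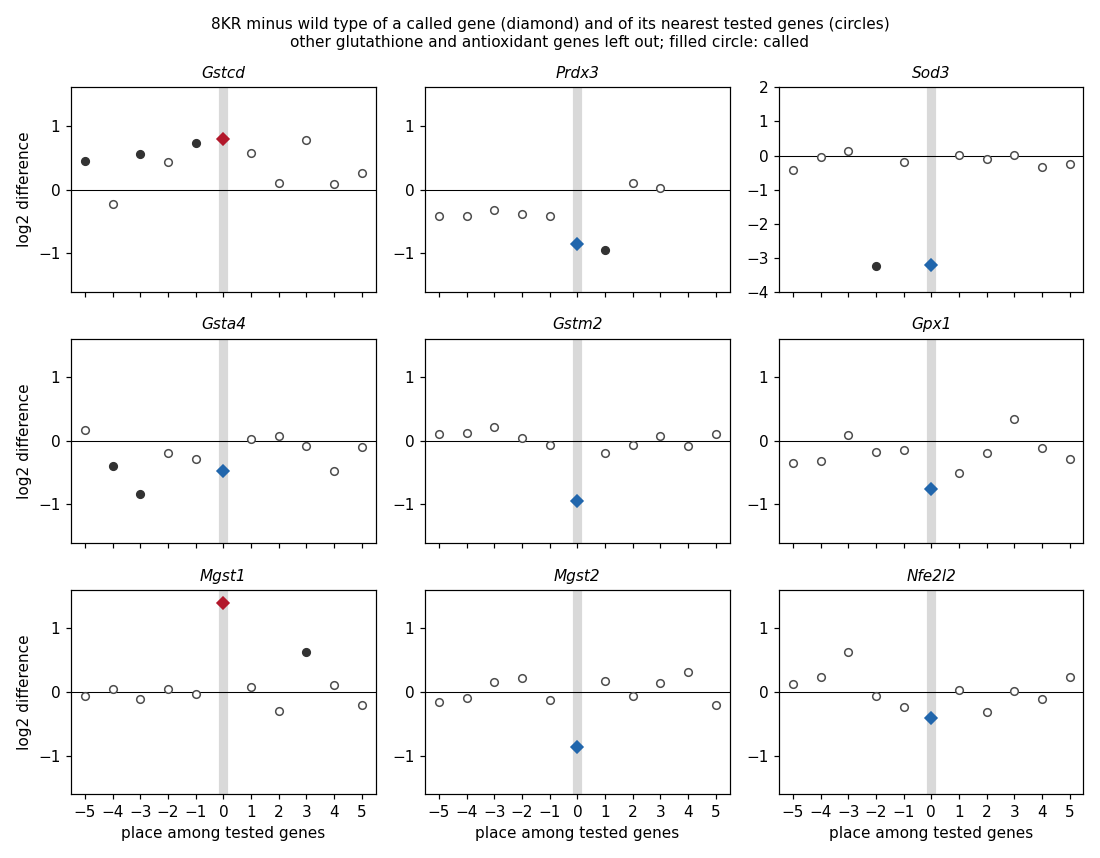
Log2 difference, 8KR minus wild type (vertical axis), of 9 called genes (diamonds) and of their nearest tested genes by place along the chromosome (circles, filled where called). The vertical axis of Sod3 is longer than the others. Neighbours of Gstcd lie mostly above 0. Those of Prdx3, Gpx1, Gsta4 and Sod3 lie mostly below 0, while those of Gstm2, Mgst1, Mgst2 and Nfe2l2 lie around 0.

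The arrays were alike in overall level, with median log2 intensities of 4.49 to 4.54, and correlations ran from 0.982 to 0.984 among arrays of a group and from 0.975 to 0.978 across the groups. Polr2a, the gene for RPB1, had 12.12, 12.13 and 12.13 in 8KR cells and 12.10, 12.11 and 12.09 in wild type cells, and its probe set does not tell the 2 forms of RPB1 apart. All 8 fibroblast markers were measured, at mean log2 intensities of 7.15 to 11.91 in 8KR cells and 7.67 to 12.11 in wild type cells. Their summed log2 intensity was 80.6 to 80.8 on the 8KR arrays and 81.7 to 82.5 on the wild type arrays, without overlap. Of the 8, 1, Col3a1 (-0.52), was called lower, against 3.06% of all genes. All 8KR arrays lay below all wild type arrays for Col1a1 (-0.39), Col1a2 (-0.13), Col3a1, Pdgfrb (-0.19) and S100a4 (-0.20). They lay above for Fn1 (0.09) and overlapped for Vim and Thy1. Col1a1, Col3a1 and S100a4 had an unadjusted p under 0.05 in limma, against 21.8% of all genes. Markers of epithelium, leukocytes, endothelium, hepatocytes, adipocytes, erythroid cells and muscle held 0 calls (limma). They reached a highest mean of 5.80 in 8KR cells and 5.91 in wild type cells. An unadjusted p under 0.05 was found for 4 of them, Tek, Fabp4, Des and Alas2, and over all genes for 21.8%. Summed levels did not overlap for the 3 adipocyte markers measured (11.1 to 11.7 in 8KR cells, 11.9 to 12.4 in wild type cells). The same held for the 4 muscle markers (17.2 to 17.7 in 8KR cells, 18.2 to 18.3 in wild type cells). It also held for the single erythroid marker, Alas2 (4.9 to 5.0 in 8KR cells, 4.1 to 4.7 in wild type cells). For single genes, 29.7% of all genes had arrays that did not overlap. These markers did not move as sets. Of the adipocyte markers, Fabp4 was at -0.68, Plin1 was at -0.03, and Adipoq was under the filter. Of the muscle markers, Des was at -0.74, and Myod1, Myog and Ckm were at 0.01, 0.02 and -0.04. The part of these shifts in the results above was not tested.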

How the data were processed

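RNA of 6 samples, 3 of 8KR and 3 of wild type, was measured on Affymetrix Mouse Gene 1.0 ST arrays. The table deposited by the authors holds log2 intensities that they had already normalized. The submitters' processing notes list Affymetrix Power Tools 1.12.0. The method of normalization and the build are not stated in these sources. The number of arrays limits the precision.

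Samples were grouped by the genotype in their labels. Of 35557 probe sets, those in which a group had a mean above 3.0 were kept (28543), as in the study's methods, and fitted in R 4.3.3 with limma 3.58.1 (lmFit, eBayes, 8KR minus wild type, two-sided, no covariate, Benjamini-Hochberg adjustment). A call is an adjusted p under 0.05. The fit was tested on simulated data first. The labels call the samples biological replicates without saying whether they came from separate transfections, so p-values measure the spread between these samples.

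Symbols came from the platform annotation, where 21789 probe sets have 1 symbol, 1621 several and 12147 none. Probe sets with several symbols or none were fitted and not named. The RefSeq table of GRCm38.p6 gave gene order and promoter sequences only, and 15 tested genes were not placed in it. The genes and lists were chosen with earlier results of these data known. Values on every array are given for called genes, for genes with arrays that did not overlap and a log2 difference of 0.5 or more either way, and for the gene of highest intensity in each role. A few more were added after their values were seen. Of the further lists, called genes are named, with Cbr1 and Blvrb given as the ends of a range. Alternatives covered the filter, quantile normalization, median centring, an intensity trend, robust variance, weights for arrays, a block for the replicate number, each array left out, single-symbol probe sets and the mean of a gene's probe sets. Figures were drawn with matplotlib 3.10.9.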

Additional observations from a re-analysis of the deposited data

How the results depend on the processing

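All 11 called genes kept their direction under all 16 alternatives. Of the 176 values, 123 also kept an adjusted p under 0.05 and 53 did not. Sod3 and Mgst1 were called under all 16 and Gpx1 under 15. Without any filter Mgst2 (0.0571) and Nfe2l2 (0.0612) were not called. With each array left out in turn, 3 to 6 of the antioxidant genes, 274 to 293 of all genes and 1 to 4 of the further redox genes were called, against 11, 924 and 8 with all arrays. With the replicate number as a block, these counts were 2 (Sod3 and Mgst1), 63 and 1 (Ephx1). The sources do not state whether equal numbers pair the samples. Deviations of arrays with the same number correlated at -0.011, 0.009 and 0. Such values cannot tell whether these samples were prepared together. All genes called numbered 1736 (17.6%) with a group mean above 5.0 and 1528 (8.91%) with an intensity trend in the variance. They numbered 1638 (9.55%) when only single-symbol probe sets were fitted and 1733 (10.1%) when a gene's probe sets were averaged. Averaging called 13 (19.4%) of the further redox genes. The stricter filter, single-symbol probe sets and averaging each test fewer features, and the cause of the higher count was not tested. The counts of called antioxidant genes under the alternatives other than the block and the omitted arrays were 9 to 16. Under the same alternatives 3.47% to 17.6% of all genes were called. The count of 16 came with the stricter filter, single-symbol probe sets and averaging, where the share of all genes was also higher than the main 5.39%. Gss was called under 5 of these alternatives, and Keap1 and Txn2 under 4. Arrays give no read depth.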
